A study of Caenorhabditis elegans with 3 samples.

Results

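Lysine tRNA genes were the 46 nuclear genes that the RefSeq annotation of the assembly WBcel235 lists as tRNA genes with the product tRNA-Lys, of 612 nuclear tRNA genes in all in *Caenorhabditis elegans*. The rule that chose them used their annotation alone and no measured value, but it was set with earlier results of these data known. A transfer RNA carries 1 kind of amino acid to the ribosome and reads codons through its anticodon, and the lysine tRNAs with the anticodons CTT and TTT (in DNA letters) read the codons AAG and AAA. Both are used in nearly every protein, and a genome holds many copies of these short genes. RNA polymerase III (Pol III) makes tRNA from a promoter that lies inside the gene. The factor TFIIIC binds its A box and B box, places TFIIIB just upstream, and TFIIIB recruits the polymerase, which stops at a run of T behind the gene.

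The binding of RPC-1, the largest Pol III subunit, was mapped by ChIP-seq, in which DNA bound by a protein is pulled down with an antibody and sequenced, in 1 group of 3 biological replicates. All were whole young adult hermaphrodites, of unknown age, of the transgenic strain YL517, in which RPC-1 bears a GFP-FLAG tag at its C terminus and is stably expressed, and the antibody was against GFP. The 3 replicates share this 1 line, there is no untagged or wild-type group here, and the control behind the peak calls was not analysed here. In whole animals, binding in few cells and weaker binding in all cells cannot be told apart. Each replicate has a list of peaks and background (24182, 24563 and 30000 peaks). A further list holds the 1914 peaks kept as reproducible between replicates. Those 1914 peaks lie on 1673 intervals, so some are further summits of an interval that holds another peak. Each gene was given the strongest peak that overlapped it by at least 1 bp, and the peak's signal is the authors' value, which ranks peaks within a list and is not comparable between lists.

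The lysine tRNA genes had only 9 distinct sequences. By script, the anticodon was read as the middle of a 7-base loop closed by 5 base pairs, which all 46 genes have. There were 31 genes with CTT, of which 25 are identical, and 15 with TTT, of which 14 are identical. The remaining 7 genes each have a sequence of their own, and they are described one by one below. The 6 sequences that follow are from RefSeq's WBcel235 (the same sequence as ce11). E03E2.t3 (chrX:5713652-5713724, plus strand) stands for the 14 identical TTT genes. K11E4.t4 (chrX:13729905-13729977, plus) differs from the 25 identical CTT genes by 1 base, G46C, where positions are counted from 1 at the 5′ end of the gene and the base of the common sequence is written first. K11E4.t2 (chrX:13716493-13716565, plus) has C4T and G53T, and M163.t1 (chrX:14486211-14486283, minus) has C2T, C3A, C4A, G5A, G6A and T7A. T10B9.t1 (chrII:9773654-9773728, plus) has 75 bases and is 8 edits (bases changed, gained or lost) from the common CTT sequence. F37A4.t1 (chrIII:6724135-6724220, minus) has 86 bases. Capitals mark the part of the A box searched as CNNAGTNGG and the part of the B box searched as GTTCGANNC, both on the sense strand only.
E03E2.t3: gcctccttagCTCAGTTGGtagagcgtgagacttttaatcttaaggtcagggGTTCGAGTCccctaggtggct
K11E4.t4: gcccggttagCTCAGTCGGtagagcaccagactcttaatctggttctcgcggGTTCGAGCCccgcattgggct
K11E4.t2: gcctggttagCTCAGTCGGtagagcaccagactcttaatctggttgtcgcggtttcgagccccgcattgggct
M163.t1: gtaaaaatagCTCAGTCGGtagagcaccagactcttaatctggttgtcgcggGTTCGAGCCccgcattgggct
T10B9.t1: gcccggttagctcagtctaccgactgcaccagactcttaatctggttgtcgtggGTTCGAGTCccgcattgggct
F37A4.t1: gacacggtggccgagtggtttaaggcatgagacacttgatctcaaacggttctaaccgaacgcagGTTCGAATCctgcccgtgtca

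The B box letters were found in 45 of the 46 lysine tRNA genes, all but K11E4.t2, and in 441 of all 612 tRNA genes (72.1%). The A box letters were found in 43 lysine tRNA genes, all but T10B9.t1, F37A4.t1 and F21C3.t1, and in 111 of all tRNA genes (18.1%). These are letters shared by the lysine forms, so a gene without them may hold another form of either box. All 46 genes had a run of at least 4 T within 40 bases behind the gene, as did 605 of all 612 tRNA genes (98.9%). The first and last bases of a tRNA pair as the acceptor stem, which carries the amino acid. All 7 pairs (Watson-Crick or G-T) could form in 30 lysine tRNA genes (65.2%) and in 88.7% of all tRNA genes. The 14 identical TTT genes had 6 of 7 pairs. M163.t1 had 4, because its 6 changed bases all lie in the 5′ side of this stem.

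RPC-1 was found over nearly all lysine tRNA genes. A reproducible peak overlapped 45 of 46 (97.8%, exact binomial 95% interval 88.5 to 99.9%, for the counting of genes only), against 96.4% of all tRNA genes. One of the stronger 957 reproducible peaks overlapped 43 (93.5%), against 93.3% of all tRNA genes, and one of the strongest 478 overlapped 35 (76.1%), against 71.2%. A total of 44 genes (95.7%) lay under the 1914 strongest peaks in all 3 replicates, against 94.9% of all tRNA genes. These shares are near those of all tRNA genes. With peaks trimmed to 100 bp around the summit on each side, the shares differed more. A reproducible peak then overlapped 97.8% of lysine tRNA genes and 90.8% of all tRNA genes, which still lies within the interval of 88.5 to 99.9% above. Under the strongest peaks of all 3 replicates lay 44 lysine tRNA genes, against 88.6% of all tRNA genes. The 45 genes lay under 40 distinct strongest peaks, because 9 of them shared a peak with another lysine tRNA gene. Of the 46 genes, 29 were the only tRNA gene under their peak. The median signal of the 46 genes in the reproducible list was 3782, with quartiles of 2580 and 4207. Their median percentile rank there was 87.6, where the strongest peak stands at 100, against 83.5 for all tRNA genes. In the replicates' lists the median percentile rank was 98.8 ± 0.0902 (SD, n = 3), against 98.7 ± 0.143 for all tRNA genes.

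**Figure D1:**
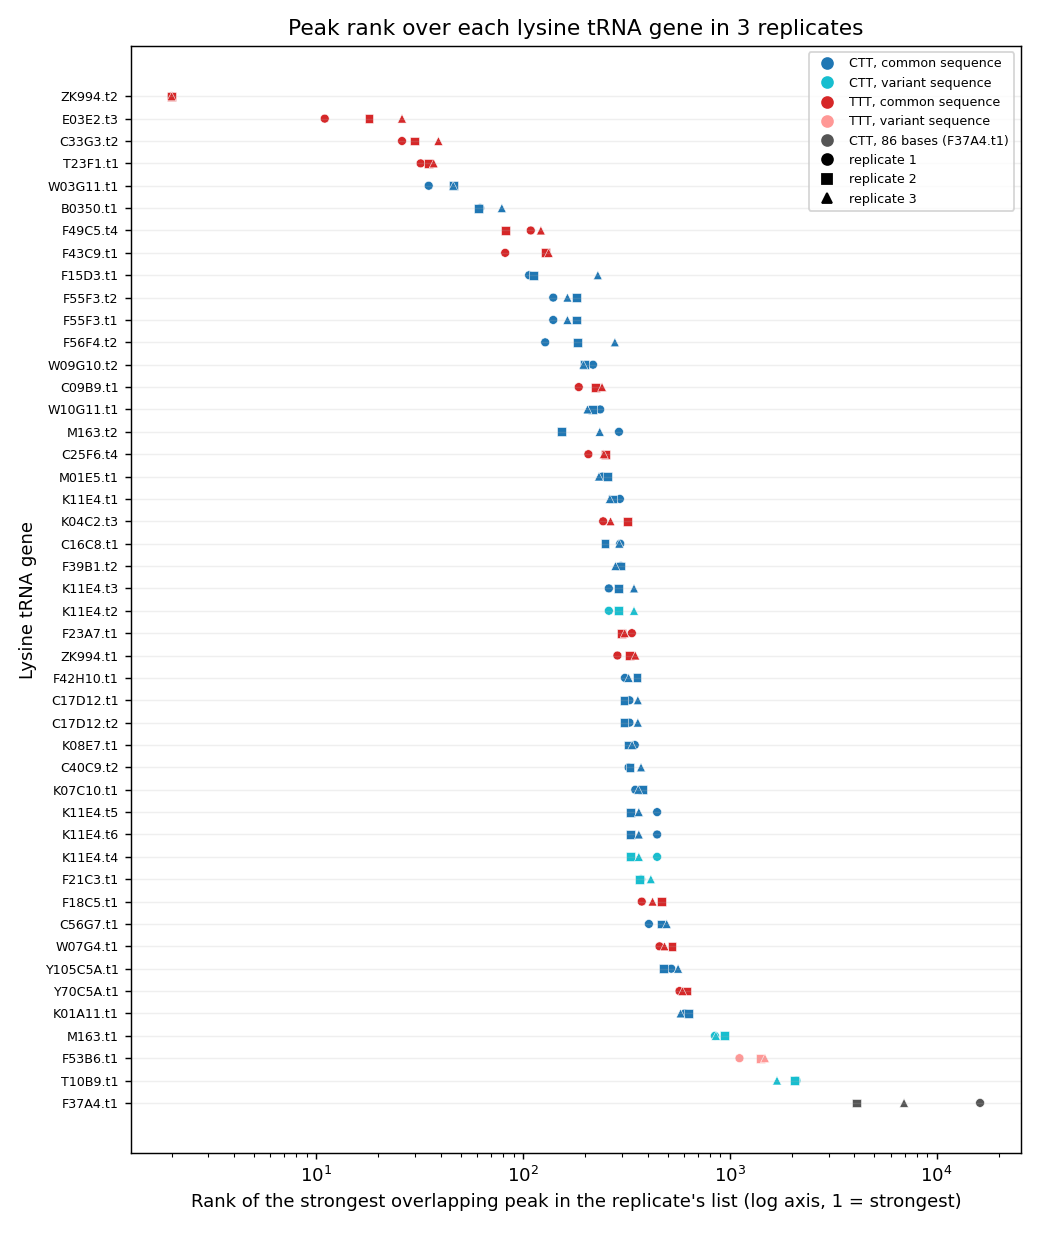
Rank of the strongest peak over each of the 46 lysine tRNA genes in the lists of replicates 1, 2 and 3 (log axis, 1 is the strongest peak). Colours give the anticodon and sequence form, and genes are in the order of their mean rank. M163.t1, F53B6.t1, T10B9.t1 and F37A4.t1 stand apart at the bottom in all 3 lists, and the other genes lie at ranks up to 631.

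The order of the genes was much the same in each replicate. Across the 46 genes, replicates 1 and 2 had a Spearman's rho of 0.959 in signal, replicates 1 and 3 one of 0.958, and replicates 2 and 3 one of 0.969. Genes that share a peak share its value, so the points are not independent. Between the reproducible list and a replicate it was lower, 0.704 to 0.735 over the 45 genes with a reproducible peak. Taking for each gene the overlapping peak with the nearest summit gave 0.830 to 0.841. The count of reproducible peaks found with identical borders and summit in a replicate's or the pooled list was 0, and ranks in the replicates are given beside its signals.

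Of the 10 lysine tRNA genes with the highest signal, 7 had the TTT anticodon and 3 had CTT, and 4 lay on the X chromosome. Among all 46, 15 had TTT and 18 (39.1%) lay on the X chromosome, as did 45.1% of all tRNA genes. The highest value was 9368 at ZK994.t2 (chrV:8499564-8499636, minus strand), which lies inside pxn-1, a peroxidasin gene, on the opposite strand. That peak ranked 2 in the reproducible list and 2 in each replicate. Its summit lay 934 bp from the tRNA gene and 9 bp from the snoRNA gene ZK994.7, so the value is not that of the tRNA gene. The overlapping peak with the nearest summit, which fell within ZK994.t2, had a signal of 3070 and rank 351, and ranks of 419, 324 and 364 in replicates 1, 2 and 3. Of the genes with a summit of their own, E03E2.t3, outside protein-coding genes, was thus the highest. Its signal was 7467 (rank 10), and its ranks in replicates 1, 2 and 3 were 11, 18 and 26.

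The next were likewise high in all 3 replicates. C33G3.t2 (TTT, chrX:14063946-14064018, minus) had a signal of 6425, with ranks of 26, 30 and 39 in replicates 1, 2 and 3. W03G11.t1 (CTT, chrX:12106147-12106219, minus) had 6379, with ranks of 35, 46 and 46. Both lie outside protein-coding genes, as do T23F1.t1 (TTT, chromosome V), with a signal of 5799, and B0350.t1 (CTT, chromosome IV), with 5663. T23F1.t1 shared its peak with another tRNA gene. F43C9.t1 (TTT, X) had 5301 and C09B9.t1 (TTT, IV) had 5263, and both lie in a protein-coding gene on its strand. C09B9.t1 was lower in the replicates, at ranks of 186, 224 and 241, than in the reproducible list, at rank 60. F49C5.t4 (TTT, II) had 4962, under a peak over 3 tRNA genes, and F15D3.t1 (CTT, I) had 4440.

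Genes with the same sequence differed several-fold. Reads that lie wholly within a shared sequence can be placed at each of its copies. How such reads were treated is not given in the sources used here, and their part in these values was not tested. Among the 25 identical CTT genes, by the strongest peak, the signal ran from 1522 at K01A11.t1 (chrIII:3426913-3426985, minus, inside metl-18 on the opposite strand) to 6379 at W03G11.t1, a ratio of 4.19. By this measure the same pair was lowest and highest in each replicate, with ratios of 3.94, 4.10 and 3.42. By the peak with the nearest summit W03G11.t1 was again the highest in every list. The lowest was then C17D12.t1 in the reproducible list (947, a ratio of 6.73), K11E4.t6 in replicates 1 and 2 (ratios of 4.13 and 4.78) and K01A11.t1 in replicate 3 (9.21), so the gene at the low end depended on the peak taken and on the list. The summit of the peak over K01A11.t1 lay 97 bp downstream of its start. Among the 14 identical TTT genes, also by the peak with the nearest summit, the signal ran from 2196 at Y70C5A.t1 (chrV:16622059-16622131, minus, inside Y70C5A.2 on the same strand) to 7467 at E03E2.t3. This is a ratio of 3.40, and the same pair gave 4.66, 4.74 and 4.01 in the replicates. By the strongest peak the highest was ZK994.t2, whose peak is centred at a snoRNA gene. By the strongest peak, the median was 3651 for the 25 CTT genes (quartiles 2808 and 3990) and 4672 for the 14 TTT genes (quartiles 3842 and 5674), so the ranges overlap. The base sequence in front of these genes differs, and the 50 upstream bases of the highest and the lowest member of each form are shown to compare them (WBcel235, sense strand, ending at the base before the gene).
W03G11.t1 upstream: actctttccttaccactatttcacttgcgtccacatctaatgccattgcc
K01A11.t1 upstream: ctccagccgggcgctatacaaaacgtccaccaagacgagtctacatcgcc
E03E2.t3 upstream: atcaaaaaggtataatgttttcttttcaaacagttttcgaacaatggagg
Y70C5A.t1 upstream: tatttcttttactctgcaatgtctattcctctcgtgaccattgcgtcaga

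The share of A and T in these 50 bases was 56% at W03G11.t1 and 42% at K01A11.t1, and 70% at E03E2.t3 and 60% at Y70C5A.t1. Over all 39 genes of the 2 shared sequences it had a Spearman's rho of 0.0063 with the signal, and the length of the T run behind the gene one of -0.018. Over the 46 genes the values were 0.063 and -0.083. The letters GCC stood directly before the gene in 22 of 31 CTT genes, in 0 of 15 TTT genes and in 19 of the 566 other tRNA genes (3.36%). This feature was chosen after the sequences were seen. The 19 identical CTT genes with GCC had a median signal of 3501 (quartiles 2179 and 3990) and the 6 without it 3727 (quartiles 3650 and 3924), so the ranges overlap. The genes nearest to each other in upstream sequence, 5 edits apart where the median pair is 28 apart, were ZK994.t1 and ZK994.t2. By the peak with the nearest summit their signals were 2423 and 3070. On the same measure, the next pair, F15D3.t1 and C17D12.t2, both CTT, was 10 edits apart, with signals of 4440 and 2075. M163.t2 and F39B1.t2, CTT genes on the X chromosome, were 12 edits apart, with 4217 and 3650. F15D3.t1 and C17D12.t1 were 15 edits apart, with 4440 and 947, and ZK994.t2 and C25F6.t4 were also 15 apart, with 3070 and 4084. Pairs with like upstream bases thus had both near and distant signals in the reproducible list. By the same measure F15D3.t1 had 1301, 1013 and 1373 in replicates 1, 2 and 3. C17D12.t2 had 850, 656 and 1066 there, and C17D12.t1 had 516, 325 and 749. F15D3.t1 was thus the higher in each replicate, but by ratio nearer to both than in the reproducible list.

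By the strongest peak, the lowest values were at genes whose sequence occurs once. All 39 genes with a shared sequence had a signal of at least 1522, while 4 of the 7 single-copy genes lay below that. By the peak with the nearest summit 1 shared-sequence gene, C17D12.t1, fell below it, at 947. M163.t1 had a signal of 669 (rank 814) and ranks of 847, 941 and 856 in replicates 1, 2 and 3. It is the gene with 4 of 7 stem pairs, and its B box and A box letters are intact. M163.t2, which has the common CTT sequence and lies 7262 bp away, had 4217 (rank 165), with ranks of 291, 153 and 235. Their 50 upstream bases are 29 edits apart. F53B6.t1 (TTT, chromosome I, inside F53B6.7 on the same strand) is 2 edits from the common TTT sequence and has 5 stem pairs. Its signal was 431 (rank 981), and its ranks in replicates 1, 2 and 3 were 1113, 1413 and 1478. Of the 32-base words in this gene and 200 bp either side, 43.2% occur elsewhere in the genome, against a median of 12.7% over lysine tRNA genes, and how reads with several placements were treated is not given in the sources used here. Its part in the low value was not tested. T10B9.t1, inside ZK1321.4 on the opposite strand, had the lowest signal of the genes with a reproducible peak, 161 (rank 1498), and ranks of 2098, 2056 and 1690. It has all 7 stem pairs and the B box letters, no A box letters, and 0% repeated words. These genes were low in all 3 replicates, and by the strongest peak their values did not overlap those of the shared-sequence genes in the reproducible list or in any replicate's list. By the peak with the nearest summit, the shared-sequence gene K01A11.t1 had a signal of 237 (rank 886) in replicate 3, below M163.t1 with 260 (rank 856).

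By the strongest peak, the other 3 single-copy genes were above 1522, but K11E4.t2 was not by the peak with the nearest summit. F21C3.t1 (CTT, chromosome I), 1 edit from the common sequence and without the A box letters, had a signal of 3969 and ranks of 372, 366 and 415 in replicates 1, 2 and 3. K11E4.t4 was covered by a peak of 3990 whose summit lay 392 bp away in K11E4.t5, and its peak with the nearest summit, which fell within the gene, had 2635. K11E4.t2, the gene without the B box letters, was covered by a peak of 3441 with its summit in K11E4.t3, 696 bp away. Its peak with the nearest summit, 35 bp from the gene, had a signal of 1064 (rank 677) and ranks of 592, 581 and 521 in the replicates. In the other 566 tRNA genes, the median signal was 2383 for the 136 single-copy genes (quartiles 1038 and 3858) and 3332 for the 404 with 3 or more copies (quartiles 2371 and 4255). It was 3276 for the 513 with all 7 stem pairs and 695 for the 19 with under 6, but all 19 are single-copy genes, so the stem and the copy number are not separate here. Among the single-copy genes alone it was 2659 for the 95 with all 7 pairs (quartiles 1317 and 3997) and 1876 for the 41 with fewer (quartiles 453 and 3527), so the ranges overlap. Across lysine tRNA genes the number of stem pairs and the signal had a Spearman's rho of -0.24 (46 genes) and of -0.42 over the 39 of shared sequence, where it only separates the CTT genes, with 7 pairs, from the TTT genes, with 6.

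**Figure D2:**
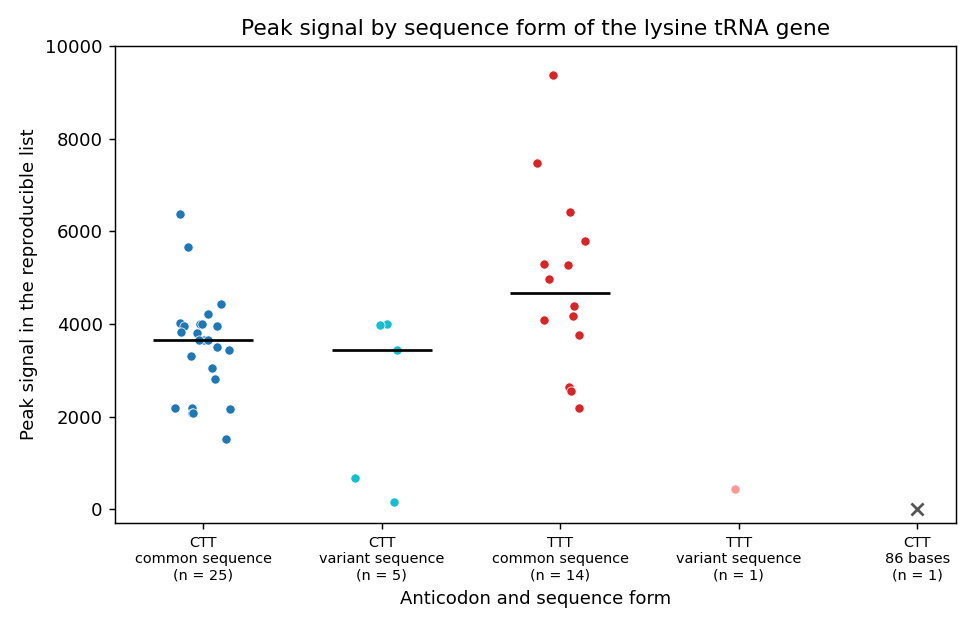
Signal of the strongest reproducible peak over each lysine tRNA gene by anticodon and sequence form, with a bar at the median for forms of more than 2 genes and a cross at 0 for F37A4.t1, which had no reproducible peak. The 25 identical CTT genes lie between 1522 and 6379 and the 14 identical TTT genes between 2196 and 9368, while 2 of the 5 CTT variants, the TTT variant and F37A4.t1 lie below 1522.

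F37A4.t1, inside F37A4.1 on the opposite strand, was the 1 lysine tRNA gene without a reproducible peak. Each replicate list held a weak peak over it, at ranks of 16209, 4114 and 6953, with signals of 3.17, 9.55 and 10.4. The medians over all tRNA genes in the same lists were 848, 621 and 1112. This gene has the anticodon CTT in a loop closed by all 5 pairs, but the rest of its sequence is 36 edits from the nearest lysine tRNA gene. The nearest tRNA gene was Y102E9.t1, annotated as an arginine tRNA, at 16 edits, with the same length of 86 bases. It lies 2771 bp away and also had no reproducible peak, with ranks of 18665, 6869 and 15407 in the replicates. The 7 tRNA genes within 21 edits of F37A4.t1 are annotated as arginine, glutamine, isoleucine and histidine and none as lysine, and they are 83 to 88 bases long. A reproducible peak overlapped 5 of these 7, with a signal of at most 1102, which is below the strongest peak over any of the 39 lysine tRNA genes of shared sequence but above the 947 of C17D12.t1 by the nearest summit. Nematodes are known to hold tRNA genes with the long variable arm of leucine and serine tRNAs and an anticodon of another amino acid. Whether F37A4.t1 yields a tRNA that carries lysine was not measured.

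A strong peak over a tRNA gene was not always centred on it. The summit of the strongest overlapping peak was within 200 bp at 37 lysine tRNA genes (80.4%), against 85% of all tRNA genes. At 8 others it lay farther away, and F37A4.t1 had no peak. At ZK994.t2 the peak was centred at a snoRNA gene, and at the other 7 at or next to another tRNA gene: F56F4.t2 (770 bp), C17D12.t1 (698 bp), ZK994.t1 (793 bp), K11E4.t2 (696 bp), K11E4.t4 (392 bp), K11E4.t6 (409 bp) and F55F3.t2 (582 bp). Each of these 8 genes had another overlapping peak with a summit at most 35 bp from it, which may be a further summit of the same interval. By ratio, the largest falls from the strongest to this peak were at ZK994.t2, at K11E4.t2 and at C17D12.t1, whose signal was 947 in place of the 2075 that it shared with C17D12.t2. At F55F3.t2 the fall was from 2179 to 2102 in the reproducible list. In replicates 1, 2 and 3 it was larger, from 1226 to 767, from 874 to 564 and from 1542 to 950. The pair K11E4.t2 and K11E4.t3 and the trio K11E4.t4, K11E4.t5 and K11E4.t6 make up, with K11E4.t1, a group of 6 CTT genes on the X chromosome, of which 4 lie inside a protein-coding gene on its strand.

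**Figure D3:**
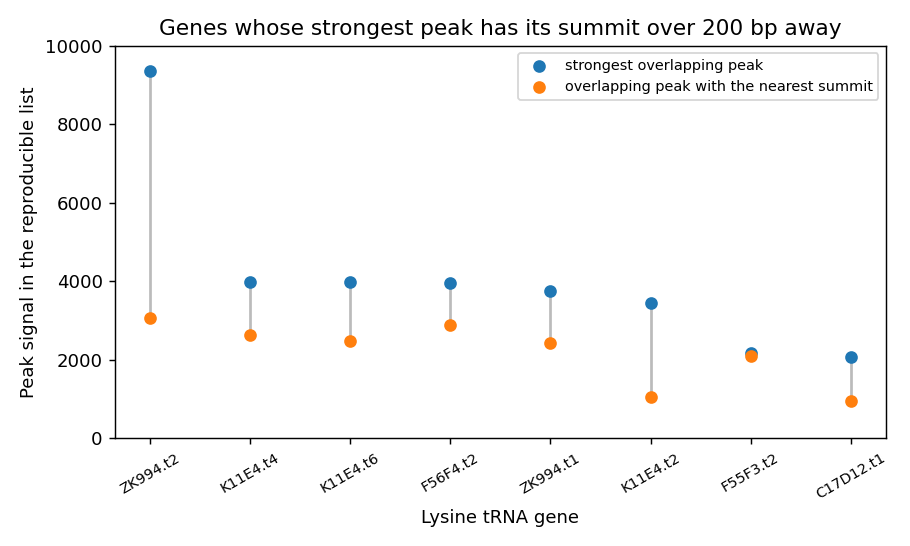
Signal in the reproducible list at the 8 lysine tRNA genes whose strongest overlapping peak has its summit over 200 bp away, for that peak (blue) and for the overlapping peak with the nearest summit (orange). The values fall from 9368 to 3070 at ZK994.t2 and from 3441 to 1064 at K11E4.t2, and stay near each other at F55F3.t2 in this list.

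Lysine tRNA genes that stood at least 1000 bp from any other tRNA gene had their nearest reproducible summit 11 bp behind the start (median of 28 genes, quartiles 10.8 and 14), close to the A box in the sequences above. For all such tRNA genes it was 13 bp (361 genes, quartiles 11 and 16). In replicates 1, 2 and 3 the median at 29 lysine tRNA genes was 14, 13 and 13 bp, with upper quartiles of 31, 23 and 57 bp. The median summit was thus at the front of the gene in each list, with a wider spread in the replicates. For all such tRNA genes the upper quartiles there were 56, 63 and 62 bp. At some genes the summit lay near the far end. At B0350.t1, of 73 bases, it was at 10 bp in the reproducible list and at 14, 64 and 60 bp in replicates 1, 2 and 3. At M163.t2 it was at 63 bp, and at 66, 101 and 67 bp.

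Kinds of lysine tRNA genes differed in median signal, with spreads among genes that overlapped. The median signal of the 31 CTT genes was lower than that of the 15 TTT genes in 3 of 3 replicates, by a log2 ratio of -0.25 ± 0.063 (mean ± SD, n = 3). The medians were 885 and 1076 in replicate 1, 656 and 741 in replicate 2, and 1087 and 1329 in replicate 3. In the reproducible list they were 3650 (quartiles 2179 and 3980) and 4381 (quartiles 3198 and 5550). The 5 TTT genes on the X chromosome lay between 4084 and 7467 in that list. The 18 lysine tRNA genes on the X chromosome exceeded the 28 on autosomes by a log2 ratio of 0.17 ± 0.045, in 3 of 3 replicates, with medians of 3990 (quartiles 3441 and 4207) and 3706 (quartiles 2186 and 4108) in the reproducible list. For CTT genes alone, the medians in replicates 1, 2 and 3 were 914, 689 and 1087 on X and 850, 642 and 1082 on autosomes. For TTT genes they were 1377, 978 and 1673 on X and 971, 631 and 1183 on autosomes. Of these TTT genes, 1 of 5 on X and 9 of 10 on autosomes lie inside a protein-coding gene. The 26 genes inside a protein-coding gene lay below the 20 outside by a log2 ratio of -0.37 ± 0.025 in the replicates, in 3 of 3. In replicate 1 the quartiles were 668 and 924 inside and 916 and 1345 outside, so they barely overlapped. In the reproducible list the log2 ratio of inside to outside was -0.072. The quartiles there were 2287 and 3990 inside and 3407 and 4746 outside. In that list the 16 genes on the strand of the host gene had a median of 3879 (quartiles 3503 and 3990) and the 10 on the opposite strand 2598 (quartiles 1660 and 3714). In replicates 1, 2 and 3 the medians were 867, 624 and 1073 against 766, 480 and 868. The X chromosome held 6 of the 16 and 0 of the 10. The 10 include F37A4.t1, counted as 0 in the reproducible list, T10B9.t1, and ZK994.t2, whose strongest peak is centred at a snoRNA gene. In each of these comparisons the quartiles of the groups overlap in the reproducible list and in replicate 1. Chromosome, anticodon and host genes are not independent of each other, since 12 of the 20 genes outside protein-coding genes and 6 of the 26 inside lie on the X chromosome. No test was run, since the smallest p of an exact sign-flip test over 3 replicates is 0.25.

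Lysine ranked 6 among 21 tRNA kinds (selenocysteine included) by median signal in the reproducible list, with 3782 against 3262 for the 566 other tRNA genes. By the mean log2 ratio in the replicates' lists it ranked 9. In the replicates the log2 ratio of lysine to the others was 0.099 ± 0.050 (SD, n = 3), above 0 in 3 of 3. The medians were 913 and 841 in replicate 1, 672 and 611 in replicate 2, and 1139 and 1106 in replicate 3. Isotypes with a like number of genes were glycine (55 genes, median 3267 in the reproducible list), arginine (44 genes, 3288), proline (42 genes, 2502) and glutamate (41 genes, 3498). Their log2 ratios to all other tRNA genes in the replicates were 0.075 ± 0.052, -0.0073 ± 0.038, -0.48 ± 0.073 and 0.20 ± 0.071, so glutamate lay above lysine there and below it in the reproducible list. The glycine median also exceeded that of lysine in replicate 1 (923) and in replicate 3 (1145), but not in replicate 2 (635). The lysine quartiles of 2580 and 4207 overlap those of each of these, 2110 and 3754 for glycine, 2288 and 4137 for arginine, 1923 and 3516 for proline, and 2284 and 4231 for glutamate.

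**Figure D4:**
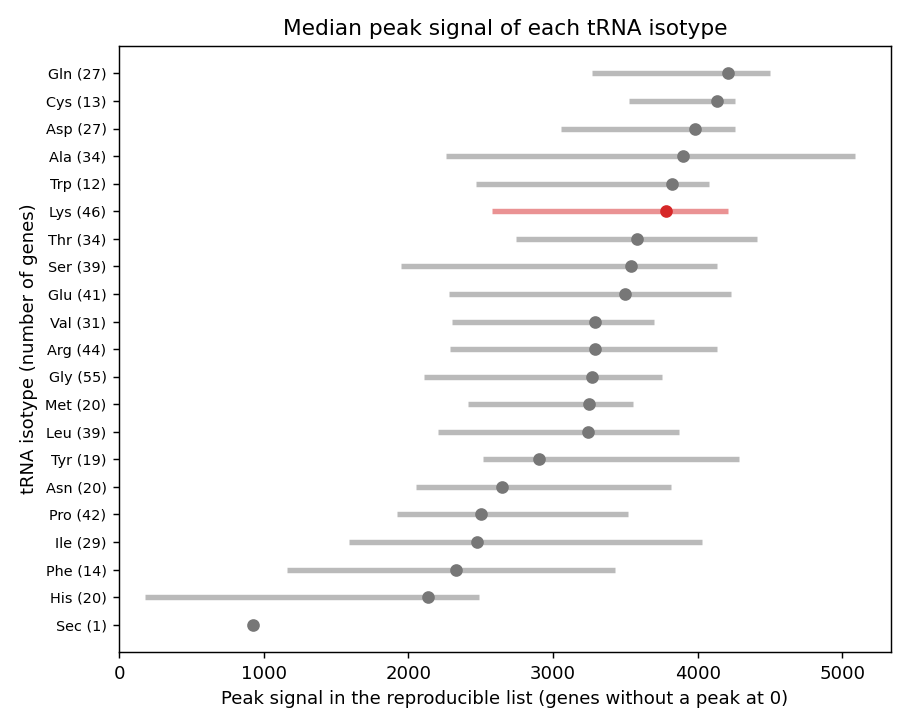
Median signal of the strongest reproducible peak over the genes of each tRNA kind (points), with the lower and upper quartiles over genes (bars) and the number of genes in parentheses, genes without a peak counted as 0. Lysine (red, median 3782) is the sixth from the top, and its quartiles of 2580 and 4207 overlap those of most other kinds.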

How the data were processed

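The authors deposited peak lists on ce11 for each of 3 replicates, for the replicates pooled and, by the irreproducible discovery rate, for peaks that hold between replicates, per the deposited file lists. The deposited signal of a peak is the authors' enrichment value, set within its list. The sources used here give no aligner, peak caller or settings, and the depth per sample is unknown, so precision was judged by the 3 replicates. Lists on ce10 were not used. Genes came from RefSeq's WBcel235 and were joined to peaks in Python 3.11.15 with pandas 2.3.3, numpy 2.4.6 and scipy 1.17.1. The joining was tested on simulated peaks. Genes without a peak counted as 0 in medians. Group ratios were taken within each replicate's list, then averaged. Labels do not say whether replicates were grown apart beyond calling them biological. Members and lists were chosen with earlier results of these data known.

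Named genes were those without a reproducible peak, the 10 highest and 5 lowest, the highest and lowest of each shared sequence, those with distant summits, and those 5 or more edits or another length from the common sequence. K11E4.t1, K11E4.t3, K11E4.t5, M163.t2, F39B1.t2, C25F6.t4 and F21C3.t1 were named outside this rule, after their values were seen, as were the genes near F37A4.t1 in sequence. The alternatives were stricter or pooled lists, shortened peaks, the nearest summit, other overlaps, genes with a peak only, 1 value per locus and leaving out each replicate.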

Additional observations from a re-analysis of the deposited data

How the results depend on the processing

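Of 72 values under alternatives, 49 stayed within the limit set for them, and none changed sign. The limit was the SD of the replicates, 1.5 times the main count for counts, or the exact binomial interval for the share of genes. Some values could not leave it. Leaving out 1 of 3 replicates cannot shift their mean by more than their SD. All 46 lysine tRNA genes had a peak in every replicate's list. Counting only genes with a peak thus repeated the ratios among them and their median rank in those lists. Counts of 44 and 37 among 46 genes could not rise by 1.5 times. The 49 are therefore not a measure of stability. The median percentile rank in the reproducible list (87.6) became 84.9 with peaks trimmed to 100 bp around the summit on each side or with the nearest summit, 83.8 with the 1914 highest pooled peaks and 87.8 over genes with a peak only. In the replicates' lists (98.8) it became 98.7 with shortened peaks or the nearest summit and 98.96 in the pooled list. The log2 ratio of lysine to other tRNA genes (0.099) became 0.17 with shortened peaks, 0.038 in the pooled list, 0.21 in the reproducible list and 0.18 with 1 value per locus. The CTT to TTT ratio (-0.25) became -0.18 with the genes of the 2 shared sequences only, a choice made after seeing the data. The X to autosome ratio (0.17) became 0.11 in the pooled and in the reproducible list. The ratio inside to outside protein-coding genes (-0.37) became -0.41 with shortened peaks or the nearest summit, -0.33 in the pooled list and -0.072 in the reproducible list. The median summit (11 bp) became 14, 13 and 13 bp in replicates 1, 2 and 3, 12 bp over all lysine tRNA genes (summits up to 300 bp off) and 16 bp with the 1914 highest pooled peaks. The cause of these shifts was not tested. No paired analysis was possible because there was only 1 group. Without read numbers, no limit from depth can be given.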
